A study of Mus musculus with 4 samples.

Results

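The interferon regulatory factors (IRFs) are transcription factors that read the output of interferon receptors and of sensors of foreign nucleic acid. The genes described here are Irf1, Irf2, Irf3, Irf4, Irf5, Irf7, Irf8 and Irf9, taken as every probe set on the array that the platform annotation gives to 1 of these symbols. This rule found 14 probe sets for 8 genes, of 45037 non-control probe sets and 18193 genes with a probe set of their own. IRFs share an N-terminal DNA-binding domain that recognises repeats of GAAA, the core of the interferon-stimulated response element (ISRE). Irf3, Irf5 and Irf7 are switched on by phosphorylation downstream of sensors and drive interferon and cytokine genes, Irf9 joins STAT proteins below the type I interferon receptor, Irf1 and Irf2 compete for the same elements, and Irf4 and Irf8 act in lymphoid and myeloid cells together with partner factors. In the thymus, Irf1 is known from the maturation of CD8 T cells, and Irf4 is induced by antigen receptor signals.

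RNA was measured on 4 Affymetrix Mouse 430 2.0 arrays, with 2 arrays per group. The tumour group was CD4+CD8+ double-positive (DP) cells taken from a peripheral tumour, a thymoma, in which Notch1-IC was over-expressed. Notch1-IC is the Notch1 receptor's intracellular, active fragment. These samples were labelled with the genotype T-ALL (T-cell acute lymphoblastic leukaemia). They were set against DP cells of normal thymus with the genotype label WT. DP cells are thymocytes at the stage when CD4 and CD8 are on the same cell. All 4 samples carry the background label WT C57/BLACK6. The sources used here do not give the age of the mice, the promoter or vector that drives Notch1-IC, or whether the 2 samples of a group are from different animals. The p-values therefore reflect sample-to-sample spread that could be technical. One label, the sample type, describes all 4 samples as tumour cells, and groups follow the titles.

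Values are deposited intensities, and a level at or below an array's background level (12.3 to 17.8 intensity units over the arrays) is called dim. Between 51.0% and 59.1% of non-control probe sets lay above background on an array. Notch1 stood at 7155 and 6417 in tumour cells, against 1104 and 1098 in normal cells, in the direction of the label. Over all 18193 genes, 16.3% were called higher and 11.7% lower in tumour cells by the test described below. Of 10 measured DP thymocyte markers, all lay above background on all 4 arrays, 8 were lower and 1, Ptcra, was higher in tumour cells. Their summed intensity was 30891 and 31435 in tumour cells, against 65291 and 65693 in normal cells. Xist, the RNA of the inactive X chromosome, was dim in tumour cells (7.07 and 10.4), against 5968 and 5578 in normal cells, so this sex-linked difference and the site of the cells cannot be told apart from transformation. The ratio of 3' to 5' beta-actin control probe sets, a sign of RNA quality, was 2.46 and 2.53 on the tumour arrays, against 1.28 and 1.20 on the normal arrays. For Gapdh the ratio was 1.84 and 1.85 on the tumour arrays, against 0.912 and 0.897 on the normal arrays. Its part in the differences below was not tested.

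Most of these genes stood higher in the tumour cells, with Irf4 and Irf8 the furthest apart, on 1 probe set each, while Irf3 was lower and Irf7 did not pass the test. With limma's test on log2 intensity, adjusted over all 45037 probe sets, 7 of the 14 probe sets rose, 2 fell and 5 did not pass at an adjusted p below 0.05. Over all probe sets, 22.8% were called, 11.3% higher and 11.5% lower. By gene, at least 1 probe set rose for 6 of the 8 (Irf1, Irf2, Irf4, Irf5, Irf8 and Irf9), and Irf3 was the gene that fell. For Irf5 this was the dimmer of its 2 probe sets, and the brighter did not pass. With only the brightest probe set of each gene tested, 5 of the 8 rose and 1 fell, beside 3156 and 2251 of all 18193 genes. The median log2 fold change of the 14 probe sets was 0.56, beside -0.02 over all probe sets. The groups did not overlap for 11 of the 14, as for 56.7% of all probe sets. The test lets the variance prior follow the level. With a prior that is the same at every level, 0 of the 45037 probe sets passed (smallest adjusted p = 0.0684), with 11337 of all and 7 of the 14 at an unadjusted p below 0.05, so every call below ends under that setting.

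**Figure D1:**
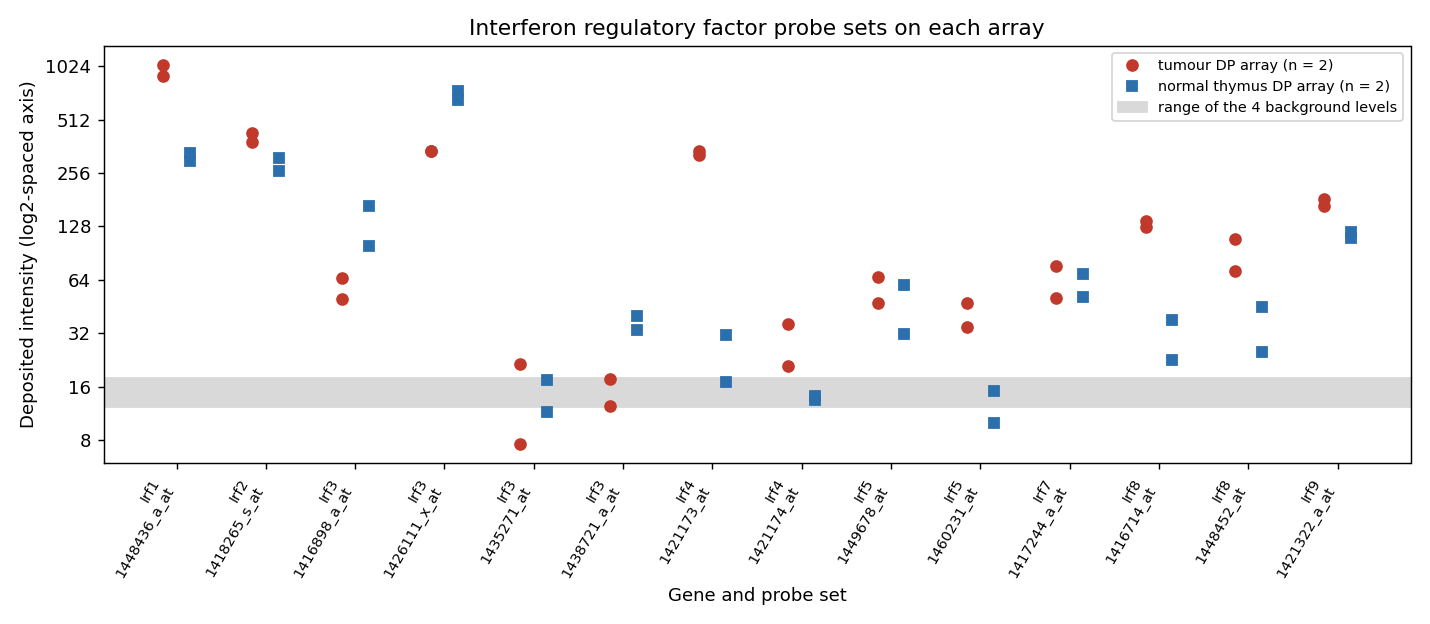
Deposited intensity of the 14 interferon regulatory factor probe sets on each array, on a log2-spaced axis, with tumour arrays as circles on the left and normal thymus arrays as squares on the right of each position. The grey band spans the background levels of the 4 arrays, 12.3 to 17.8 units; Irf4 on probe set 1421173_at shows the widest gap between the groups, and the Irf7 arrays overlap.

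Irf1 and Irf2 are the classical pair of activator and antagonist at the same DNA element. Irf1, which interferon gamma induces and which drives antigen presentation genes, had 1041 and 904 intensity units in tumour cells, against 331.5 and 299.8 in normal cells. Both tumour arrays lay well above both normal arrays. Irf1 rose by 1.62 ± 0.11 in log2 units (SE, n = 2 per group), a 3.08-fold difference with a limma adjusted p of 7.38e-06. Irf2, which occupies Irf1 sites and mostly represses, had 384.8 and 429.2 units in tumour cells, against 262.0 and 312.8 in normal cells. The groups did not overlap, but the gap between them was narrow. Irf2 rose by 0.51 ± 0.13 (adjusted p = 0.0220), a 1.42-fold difference, on a probe set whose class (_s_at) can pick up more than 1 transcript. The rise of Irf2 passed without normal replicate 2 (adjusted p = 0.0321) and did not pass without tumour replicate 1 (0.0682), tumour replicate 2 (0.164) or normal replicate 1 (0.161). When the arrays were scaled to spiked-in bacterial control RNAs, Irf2 changed sign, to -0.10 (adjusted p = 0.683). Irf1 kept its call whichever single array was left out (adjusted p = 0.000543 to 0.00138), and it differed by 1.02 with spike scaling.

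The change of Irf1 and Irf2 was unequal, which does not depend on how an array is scaled. The log2 intensity of Irf1 less that of Irf2 was 1.44 and 1.08 on the tumour arrays, against 0.34 and -0.06 on the normal arrays. Such a difference also holds the affinities of the probes and is read here only between groups. It averaged 1.26 ± 0.26 in tumour cells and 0.14 ± 0.28 in normal cells (SD, n = 2), and the groups did not overlap. No test of a single value over 2 against 2 arrays can give an exact permutation p below 0.333.

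The promoter windows of Irf1 and Irf2 are shown because both genes are themselves targets of interferon signalling. Each window runs from 250 bases before to 50 bases after a RefSeq transcription start and is printed 5' to 3' on the gene's strand, from RefSeq on GRCm38.p6. Irf1 lies on the plus strand at chr11:53769764-53770063 (the upstream of its 2 starts), and Irf2 on the plus strand at chr8:46739495-46739794. Capitals mark matches to the motifs named in the next paragraph.
Irf1 promoter window: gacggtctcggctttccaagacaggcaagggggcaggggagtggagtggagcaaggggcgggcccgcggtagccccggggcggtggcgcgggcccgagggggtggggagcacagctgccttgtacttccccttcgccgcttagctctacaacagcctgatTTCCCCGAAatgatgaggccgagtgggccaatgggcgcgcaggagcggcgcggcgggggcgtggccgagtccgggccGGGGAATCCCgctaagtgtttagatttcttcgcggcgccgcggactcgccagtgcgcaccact
Irf2 promoter window: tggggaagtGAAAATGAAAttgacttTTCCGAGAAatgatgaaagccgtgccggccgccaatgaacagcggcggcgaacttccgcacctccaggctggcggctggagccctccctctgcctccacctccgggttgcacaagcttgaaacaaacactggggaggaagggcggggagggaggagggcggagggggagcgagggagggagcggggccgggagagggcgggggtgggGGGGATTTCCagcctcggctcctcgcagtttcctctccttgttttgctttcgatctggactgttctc

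Motifs were searched as letters on both strands. They were the ISRE (GAAA, any 2 bases, GAAA), the gamma-activated site that STAT dimers bind (GAS, TTCNNNGAA), the core of the site for RBPJ, the DNA-binding partner of Notch1-IC (GTGGGAA), and the NF-kappaB consensus. Of 32851 RefSeq promoter windows of the same length, 3.44% held the ISRE, 8.3% the GAS, 6.38% the RBPJ core and 8.46% the NF-kappaB consensus. Among the 11 windows of the 8 IRF genes, 1 held the ISRE, 3 the GAS, 2 the RBPJ core and 2 the NF-kappaB consensus. In the Irf1 window the GAS match, TTCCCCGAA, lay at -90 to -82 from the start, and the NF-kappaB match, GGGGAATCCC, at -13 to -4, on both strands over the same bases. In the Irf2 window the ISRE match, GAAAATGAAA, lay at -241 to -232, the GAS match, TTCCGAGAA, at -224 to -216, and the NF-kappaB match, GGGGATTTCC, at -17 to -8. The windows of Irf4, Irf5, Irf7 and Irf9 held none of these letters. A match is a stretch of letters and says nothing of binding in these cells.

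**Figure D2:**
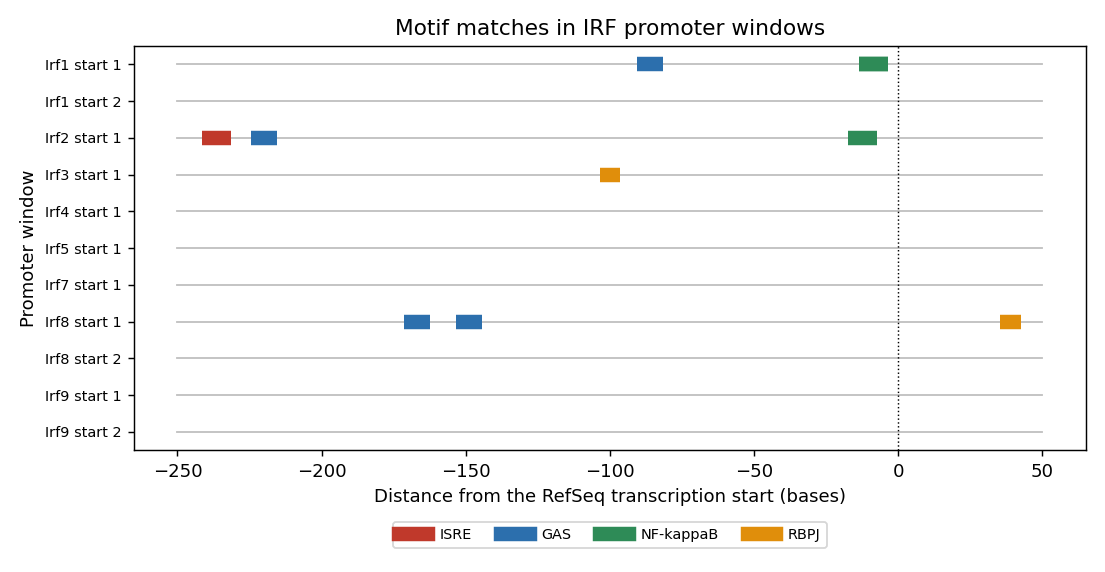
Motif matches in the 11 RefSeq promoter windows of the 8 genes, plotted by distance in bases from the transcription start (dotted line), from 250 before to 50 after. Irf2 holds the ISRE match, Irf1, Irf2 and Irf8 hold GAS matches, and Irf3 and Irf8 hold RBPJ core matches.

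Irf4 and Irf8 are close relatives that bind DNA weakly alone and gain strength from partners such as Spi1 (PU.1) or Batf. Irf4, an early response gene of antigen receptor signalling and a driver of plasma cells and effector T cells, had 342.2 and 323.7 units in tumour cells, against 31.1 and 17.1 in normal cells, on probe set 1421173_at. The normal arrays lay above, but not far from, their background levels of 15.95 and 12.3. The log2 difference of Irf4 was 3.85 ± 0.29, or 14.4-fold (limma adjusted p = 1.01e-05), with a 95% interval of 3.21 to 4.49 on the log2 scale. With 16 units added before the logarithm the rise was 3.14, and with the gene's 2 probe sets averaged it was 2.42 (adjusted p = 0.00248). The call on 1421173_at passed whichever single array was left out (adjusted p = 0.000143 to 0.00253). The other Irf4 probe set, 1421174_at, had 35.9 and 20.9 units in tumour cells, against 14.1 and 13.5 in normal cells, where 1 array was dim. Its difference of 0.99 ± 0.52 did not pass (adjusted p = 0.237), although the groups did not overlap.

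Irf8, which directs the development of monocytes and dendritic cells and also acts in B cells, rose on both of its probe sets. On 1416714_at it had 137.9 and 126.7 units in tumour cells, against 22.6 and 38.2 in normal cells. On 1448452_at it had 71.3 and 109.3 units in tumour cells, against 45.2 and 25.02 in normal cells. All arrays were above background and the groups did not overlap on either. The log2 differences were 2.17 ± 0.30 (adjusted p = 0.000539, 4.50-fold) and 1.39 ± 0.36 (adjusted p = 0.0184, 2.63-fold). The first passed whichever single array was left out (adjusted p = 0.00188 to 0.0154). The second did not pass without tumour replicate 2 (0.163), without normal replicate 2 (0.145) or with spike scaling (0.79, adjusted p = 0.136).

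On the same arrays the log2 intensity of Irf4 (1421173_at) less that of Irf8 (1416714_at) was 1.31 and 1.35 in tumour cells, against 0.46 and -1.16 in normal cells. The normal arrays differed more from each other than the tumour arrays did. On them Irf4 had 31.1 and 17.1 units and Irf8 had 22.6 and 38.2, above background levels of 15.95 and 12.3. The windows of both genes are shown because these genes had the widest differences. Irf4 lies on the plus strand at chr13:30748983-30749282, with no match, and Irf8 on the plus strand at chr8:120736108-120736407 (the upstream of its 2 starts). In the Irf8 window the GAS matches TTCTCGGAA and TTCAGAGAA lay at -171 to -163 and -153 to -145, and the RBPJ core at 36 to 42 after the start, all in capitals.
Irf4 promoter window: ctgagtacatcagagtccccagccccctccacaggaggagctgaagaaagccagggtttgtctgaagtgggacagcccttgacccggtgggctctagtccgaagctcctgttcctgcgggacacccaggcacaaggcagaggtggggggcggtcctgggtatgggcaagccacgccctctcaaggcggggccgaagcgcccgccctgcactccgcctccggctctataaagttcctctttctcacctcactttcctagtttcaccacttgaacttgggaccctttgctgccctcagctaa
Irf8 promoter window: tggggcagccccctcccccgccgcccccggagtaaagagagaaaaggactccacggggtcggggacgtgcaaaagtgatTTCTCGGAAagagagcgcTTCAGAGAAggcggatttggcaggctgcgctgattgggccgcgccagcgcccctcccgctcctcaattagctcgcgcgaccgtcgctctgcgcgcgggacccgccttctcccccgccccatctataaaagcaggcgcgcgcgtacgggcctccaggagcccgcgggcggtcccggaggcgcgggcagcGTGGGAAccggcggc

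Patterns most like that of Irf4 on 1421173_at, by Euclidean distance between mean-centred log2 values over the 4 arrays among 10053 probe sets whose brighter group averaged 7 or more (log2), were those of Hopx, Psma8 and Jchain (distances 0.18, 0.29 and 0.40). Hopx had 196.1 and 205.4 units in tumour cells, against 17.8 and 11.3 in normal cells. Jchain, the chain that joins antibody polymers, had 272.6 and 268.2 units in tumour cells, against 25.8 and 19.3 in normal cells. With 4 arrays in 2 groups, such a likeness mostly restates the size of the difference.

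Irf3, Irf5 and Irf7 are the factors that sensors activate, and they did not move together. Irf3, present before any stimulus and activated by the kinase Tbk1, fell on 2 of its 4 probe sets. On 1426111_x_at it had 341.7 and 338.9 units in tumour cells, against 745.8 and 661.4 in normal cells, a log2 difference of -1.05 ± 0.11 (limma adjusted p = 9.31e-05), or 2.06-fold lower. Both tumour arrays lay far below both normal arrays. On 1416898_a_at it had 65.9 and 49.95 units in tumour cells, against 166.5 and 99.2 in normal cells, and fell by 1.16 ± 0.28 (adjusted p = 0.0145). Probe set 1438721_a_at had 12.4 and 17.7 units in tumour cells, with 1 array dim, against 33.5 and 40.1 in normal cells, and its difference of -1.30 ± 0.45 did not pass (adjusted p = 0.0706). It passed when dim probe sets were left out below the 30th percentile (0.0460) or the 50th percentile (0.0341) and with spike scaling (0.0107). The fourth, 1435271_at, had 1 dim array in each group and overlapping groups. The fall on 1416898_a_at did not pass without tumour replicate 2 (0.121) or normal replicate 1 (0.195), whereas that on 1426111_x_at passed whichever single array was left out (0.00173 to 0.00575). The _x_at class can pick up unrelated transcripts as well.

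Irf3 and Irf1 moved apart. The log2 intensity of Irf1 less that of Irf3 (1426111_x_at) was 1.61 and 1.42 on the tumour arrays, against -1.17 and -1.14 on the normal arrays, a difference of 2.67 that array scaling leaves as it is. The 3 patterns nearest to that of Irf3 on 1416898_a_at, the called probe set with the larger fall, were those of Zfp707, Nubp1 and Fahd2a (distances 0.11, 0.19 and 0.24). The window of Irf3 on chromosome 7 held an RBPJ core on the minus strand at -103 to -97 from the start.

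Irf5, which works with Myd88 to induce inflammatory cytokines in myeloid cells, gave different answers on its 2 probe sets. On 1460231_at it had 34.8 and 47.4 units in tumour cells, against 9.93 and 15.1 in normal cells, where 1 array was dim, and it rose by 1.73 ± 0.48 (adjusted p = 0.0269). That call was lost whichever of the 4 arrays was left out (adjusted p = 0.0550 to 0.147) and with spike scaling (1.13, adjusted p = 0.119). On 1449678_at it had 66.5 and 47.3 units in tumour cells, against 59.5 and 31.9 in normal cells, with overlapping groups. That difference was 0.37 (95% interval -0.45 to 1.18, adjusted p = 0.563). Irf7, which interferon itself induces and which amplifies the type I response, had 76.2 and 50.8 units in tumour cells, against 68.8 and 51.4 in normal cells. The groups overlapped, and the difference of 0.06 had a 95% interval of -0.60 to 0.73 (adjusted p = 0.920), which leaves room for a change of up to 1.66-fold upward.

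Irf9, the DNA-binding part of the complex that carries the type I interferon signal to ISRE genes, had 182.3 and 167.7 units in tumour cells, against 109.7 and 119.0 in normal cells. Both tumour arrays were higher than both normal arrays, by a modest margin. Irf9 rose by 0.61 ± 0.17 (adjusted p = 0.0246), a 1.53-fold difference. The call was lost whichever array was left out (adjusted p = 0.0708 to 0.134), and with spike scaling the difference was 0.01 (adjusted p = 0.968). Against Irf3 on the same arrays, log2 Irf9 less log2 Irf3 was -0.91 and -1.01 in tumour cells, against -2.77 and -2.47 in normal cells.

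**Figure D3:**
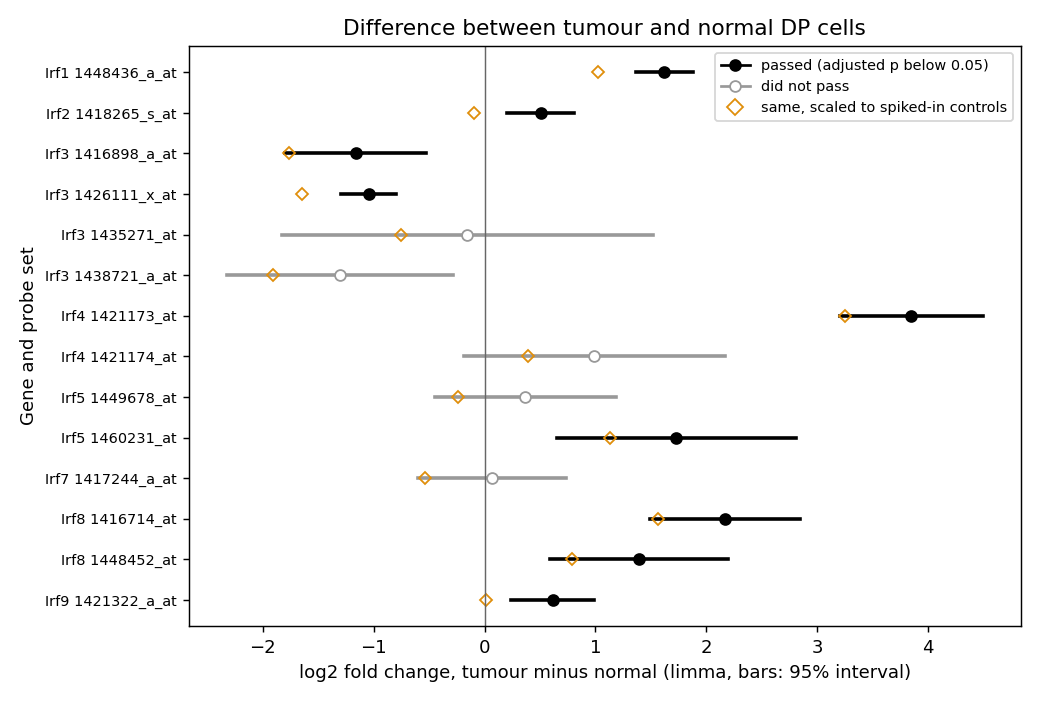
log2 fold change (tumour minus normal) of each probe set with its 95% interval from limma; filled points passed at an adjusted p below 0.05 and open points did not. Diamonds give the same value after scaling to spiked-in controls, which moves every point down by 0.60 (shown to scale) and puts Irf2 and Irf9 at -0.10 and 0.01.

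Bulk RNA of DP cells can hold RNA of other cells, in which Irf4, Irf5 and Irf8 are well known, and in such samples more cells of a type and more RNA per cell cannot be told apart. Of 15 measured macrophage and monocyte markers, 12 rose and 0 fell, and the median log2 fold change was 3.61, or 3.55 using bounds for dim genes. Their summed intensity was 4830 and 4974 in tumour cells, against 347.1 and 347.3 in normal cells, where 7 of them (Cd14, Cybb, Fcgr3, Mrc1, C1qa, C1qc and Cd163) were dim on both arrays. Csf1r, the receptor for macrophage colony-stimulating factor, had 550.3 and 624.5 units in tumour cells, against 20.5 and 17.9 in normal cells. These markers moved in the same direction as Irf4, Irf8 and Irf5 on 1460231_at, while for Irf5 on 1449678_at the groups overlapped. The part of these markers in the IRF differences was not tested. Of 12 neutrophil markers 8 rose and 0 fell, with a median of 3.0 (2.03 using bounds for dim genes) and sums of 2208 and 2248 in tumour cells, against 215.1 and 276.1 in normal cells.

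Of 15 B and plasma cell markers, 3 rose and 3 fell, where 16.3% of all 18193 genes rose and 11.7% fell. Cd79a and Pax5, which define B cells, were dim on all 4 arrays, as were Cr2, Fcer2a and Tnfrsf17. The 3 that rose were Sdc1 (4.79), Jchain (3.60) and Cd22 (2.63), and the 3 that fell were Cd79b (-2.42), Xbp1 (-1.05) and Mzb1 (-0.47). The sums of the list were 2893 and 3024 in tumour cells, against 4033 and 3771 in normal cells. Without Xbp1, the brightest of these genes, the sums were higher in tumour cells, at 1424 and 1453, against 786.2 and 732.4 in normal cells. That gap rests largely on Sdc1, with 689.7 and 696.8 units in tumour cells, against 21.5 and 29.1 in normal cells. Of 15 dendritic and plasmacytoid dendritic cell markers, 7 rose and 2 fell. The 7 that rose were Clec10a (dim in normal cells, at least 5.06-fold), H2-Aa (2.98), Itgax (1.95), H2-Eb1 (1.76), Klrd1 (1.69), H2-Ab1 (1.64) and Tcf4 (0.62). The 2 that fell were Ly6d (-4.30) and Ccr9 (-1.56), which thymocytes also express. Flt3, Zbtb46, Xcr1, Siglech, Bst2 and Cd209a were the 6 that did not pass. The median log2 fold change of the list was 0.93, or 0.09 using bounds for dim genes. Ly6d and Ccr9 carried most of the list's sums of 5495 and 6403 in tumour cells, against 16385 and 20235 in normal cells. Without Ccr9 the sums were 2146 and 2298 in tumour cells, against 7336 and 6939 in normal cells. Of that remainder, Ly6d averaged 321.9 units in tumour cells, against 6311 in normal cells. Of 11 NK cell markers 5 rose and 0 fell, with sums of 5691 and 5697 in tumour cells, against 1229 and 1201 in normal cells. Gzma, a protease of cytotoxic granules, made up most of these sums, and the other 10 summed to 661.2 and 656.9 in tumour cells, against 194.7 and 165.9 in normal cells. Of 12 markers of thymic epithelium and stroma 2 rose and 2 fell, near the shares over all genes. Their sums were 3355 and 3816 in tumour cells, against 495.6 and 427.8 in normal cells. Pdgfrb, a growth factor receptor of stromal cells, made up most of the tumour sums, and Krt5 (1.07) also rose. Without Pdgfrb the sums were lower in tumour cells, at 332.8 and 376.3, against 467.6 and 402.7 in normal cells, where the groups did not overlap. Those lower sums rest largely on the 2 genes that fell, Pecam1 and Epcam. Pecam1 had 155.5 and 155.5 units in tumour cells, against 302.0 and 228.9 in normal cells. Epcam had 24.7 and 24.4 units in tumour cells, against 75.7 and 91.4 in normal cells. The part of these lists in the IRF differences was not tested.

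**Figure D4:**
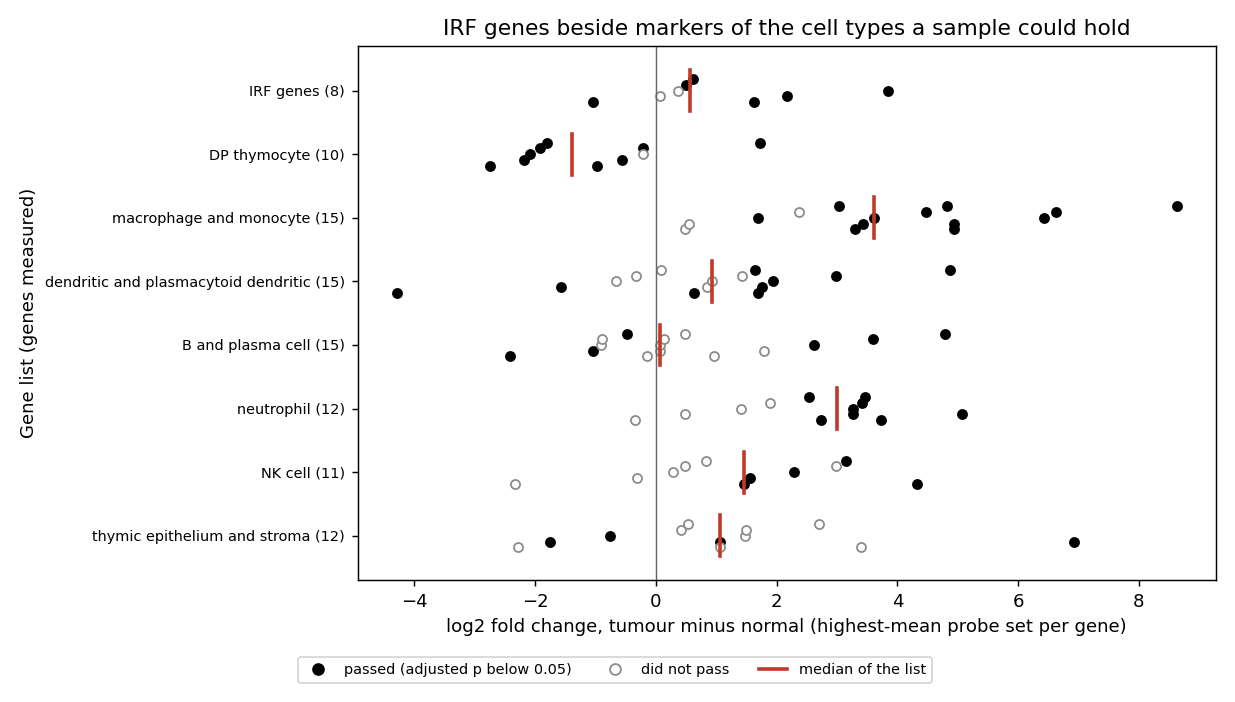
log2 fold change (tumour minus normal) of the 8 IRF genes and of the markers of 7 cell types, each gene on its brightest probe set, with filled points for genes that passed and a bar at each list's median. Macrophage and neutrophil markers lie mostly to the right (medians 3.61 and 3.0) and DP thymocyte markers to the left (median -1.39).

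The genes around the IRFs were read from 5 lists, each gene on the brightest of its probe sets. Among those named below, Irak1 and Socs3 were read on _x_at probe sets. Ifi202b, Ifi35, Sting1, Tbk1 and Nfatc3 were read on _s_at probe sets. Both classes can pick up other transcripts. Over all 18193 genes, 16.3% were called higher and 11.7% lower, with a median log2 fold change of 0.09. Among 30 interferon-stimulated genes, the targets of Irf9 and Irf7, 9 rose and 2 fell, with a median of 0.31 (0.29 with genes dim in a group set at their bound, or at 0 where both groups were dim). Ifi202b had 1421 and 1497 units in tumour cells and was dim in normal cells (1.88 and 3.17), at least 104-fold apart (limma adjusted p = 1.17e-07). Ifi204, a relative of Ifi202b, was at least 15.3-fold higher. The next were Oas1a, an enzyme that activates RNA decay (1.81, adjusted p = 0.0111), and Rsad2, an antiviral enzyme (1.72, adjusted p = 0.000194). The 2 that fell were Samd9l (-1.60) and Ifi27l2a (-0.89). Ifih1, a sensor of viral RNA (1.64, adjusted p = 9.76e-05), Parp14 (1.46), Eif2ak2, a kinase that halts translation (1.30, adjusted p = 0.000228), Trim30a (1.03) and Ifi35 (0.92) also rose. Among the 19 that did not pass were Ifit1 (-0.06, adjusted p = 0.933) and Usp18 (0.60, adjusted p = 0.0775), and the genes of this and the preceding sentence were named after their values were seen. With spike scaling 8 rose and 6 fell.

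Of 28 antigen presentation and interferon gamma target genes, the known targets of Irf1, 15 rose and 5 fell, with a median of 0.64 (0.60 using bounds for dim genes). Iigp1, a GTPase that attacks parasite vacuoles, had 596.7 and 539.2 units in tumour cells, against 23.3 and 32.3 in normal cells, a log2 difference of 4.37 ± 0.21. Gbp3, another interferon-induced GTPase, rose by 2.57, and Nlrc5, the activator of MHC class I genes, by 1.96 (adjusted p = 0.00288 and 0.000845). Il18bp, which neutralises interleukin 18, was dim in normal cells and at least 2.77-fold higher in tumour cells (adjusted p = 0.0107). The 5 that fell were Socs1 (-1.38), Igtp (-0.83), Tap2 (-0.80), Gbp6 (-0.64) and Psmb8 (-0.64). With spike scaling 9 rose and 7 fell.

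Of 19 interferons, interferon receptors and JAK-STAT genes, 3 rose and 6 fell, with a median of -0.05. Jak1, the kinase common to interferon receptors, had 822.1 and 811.0 units in tumour cells, against 2585 and 2364 in normal cells, and fell by 1.60 ± 0.08. Pias1, an inhibitor of STATs, fell by 1.43. Socs3, a feedback inhibitor of cytokine receptors, rose by 2.68, and Ptpn2, a phosphatase of JAKs and STATs, by 1.39. The kinase Tyk2, named after its value was seen, also rose, by 1.16 (limma adjusted p = 0.00182). It had 191.5 and 208.4 units in tumour cells, against 103.8 and 77.5 in normal cells. The other 4 that fell, named after their values were seen, were Ptpn6 (-1.32) and the receptor chains Ifngr1 (-1.36), Ifngr2 (-1.24) and Ifnar1 (-0.92). The interferons Ifnb1, Ifng and Ifna2 were dim on all 4 arrays. Ifna4 had 20.8 and 14.5 units in tumour cells, just above background, and was dim in normal cells (2.92 and 1.25), and its difference did not pass (adjusted p = 0.0889). With probe sets averaged per gene 1 rose and 5 fell.

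Of 21 sensors and kinases upstream of IRFs, 6 rose and 3 fell, with a median of 0.42 (0.31 using bounds for dim genes). Irak1, a kinase that acts on Irf5 and Irf7, had 930.6 and 914.1 units in tumour cells, against 156.0 and 160.6 in normal cells, and rose by 2.54 ± 0.11 (limma adjusted p = 4.77e-07). Unc93b1, which carries nucleic acid sensing Toll-like receptors to endosomes, rose by 2.35, Sting1, the adaptor of cytosolic DNA sensing upstream of Irf3, by 2.34, and Traf6, a ubiquitin ligase below Myd88, by 1.45. The 3 that fell were Tnfaip3 (-1.16), Slc15a4 (-0.61) and Trim21 (-0.56). Tbk1, the kinase of Irf3, had 704.7 and 714.7 units in tumour cells, against 694.7 and 637.3 in normal cells, and did not pass (0.09, adjusted p = 0.586). With spike scaling 4 rose and 6 fell.

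Of 24 partners and cofactors of IRFs, 6 rose and 5 fell, with a median of 0.13 (0.10 using bounds for dim genes). Batf, which binds DNA jointly with Irf4 or Irf8, had 272.8 and 241.4 units in tumour cells, against 86.3 and 101.3 in normal cells, and rose by 1.46 ± 0.17 (adjusted p = 0.000180). Ikzf3, an Ikaros family factor, rose by 1.06, whereas Bcl6, a repressor, fell by 1.22 and Nfatc3, a calcium-responsive factor, by 1.09. Spi1, the partner of Irf4 and Irf8 in myeloid and B cells, had 30.6 and 27.3 units in tumour cells, against 12.9 and 15.7 in normal cells, where 1 array was dim. Its difference of 1.02 did not pass (adjusted p = 0.182). With spike scaling 3 rose and 13 fell, and with probe sets averaged per gene 2 rose and 5 fell.

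**Figure D5:**
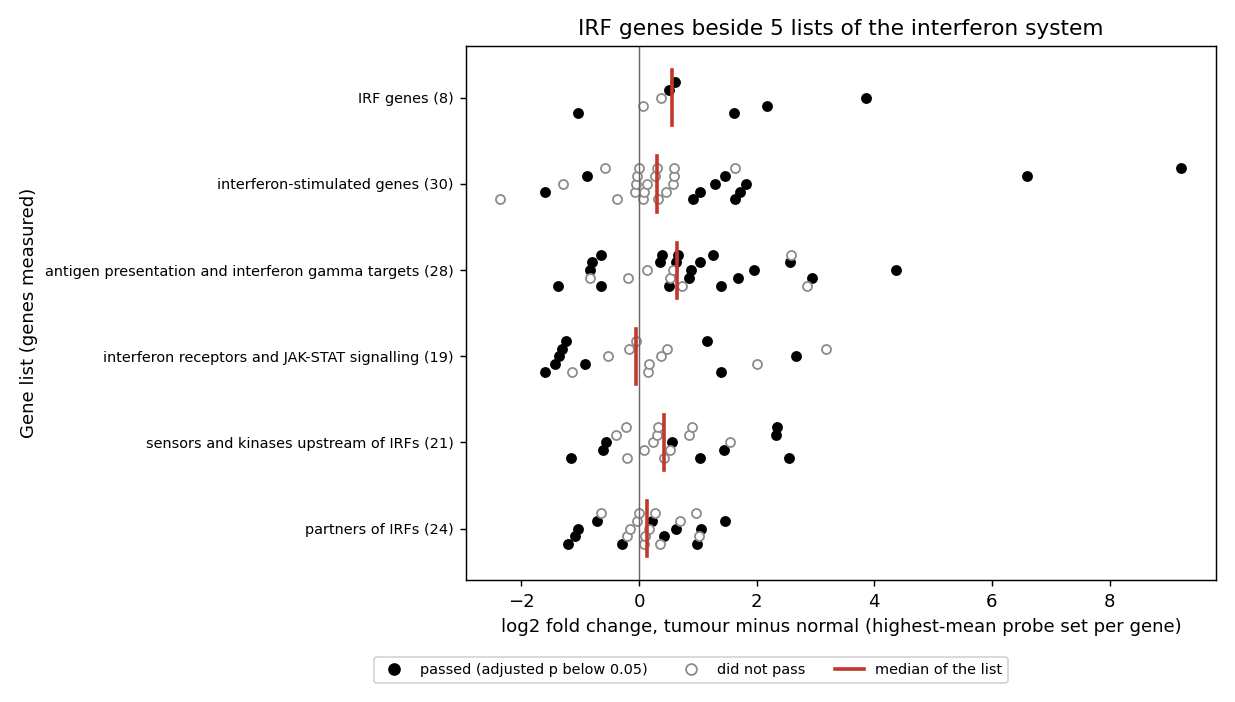
log2 fold change (tumour minus normal) of the 8 IRF genes and of the genes of 5 lists of the interferon system, each gene on its brightest probe set, with filled points for genes that passed and a bar at each list's median. Medians lie between -0.05 (receptors and JAK-STAT signalling) and 0.64 (antigen presentation), and each list holds genes that passed in both directions.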

How the data were processed

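Per the labels' protocols, column-extracted total RNA was turned into biotinylated cRNA for 3' expression arrays. The file deposited by the authors holds a linear intensity for each probe set and array (0.08 to 19270), distributed almost alike on all 4 arrays. The submitters' processing notes name RMA without a version, and how values below 1 arose is not settled. The deposited intensity was converted to log2 without adding an offset or leaving out dim probe sets. Gene names are those of the platform annotation: 34945 probe sets had 1 symbol and were used for genes, 932 had several and 9160 none.

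Differences were tested in R 4.3.3 with limma 3.58.1 (lmFit, then eBayes with trend and robust prior, no covariate) over 45037 probe sets, two-sided, with Benjamini-Hochberg adjustment at 0.05, after tests on simulated data. This prior was chosen because the median replicate SD (log2) was 1.31 in the dimmest 25% of probe sets and 0.102 in the brightest 25%. Members, lists, test and naming rules were chosen with earlier results of these data known. All member probe sets are named, and per list up to 4 called genes with the largest change, or 2 where none is called, and the 3 patterns nearest to the member with the largest rise and fall. Other list genes, among them many that fell or did not pass, are named outside this rule, after their values were seen. Not every gene that rose is named. The background level is an array's highest value among 27 control probe sets of bacterial genes without spiked-in RNA. "At least N-fold" sets the bright group's mean log2 against the dim group's with arrays raised to background. Spike scaling uses 14 BioB, BioC and BioD control probe sets. Older list symbols were matched through the RefSeq table, and list genes without a probe set of their own were not analysed here. The number of arrays limits the precision.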

Additional observations from a re-analysis of the deposited data

How the results depend on the processing

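Over 223 recomputed fold changes of the 14 IRF probe sets, 178 kept their direction and side of the threshold, 34 lost a call and 3 gained one. The other 8 changed sign, 1 from a call (Irf2 with spike scaling) and 7 that passed in neither setting (Irf7, Irf5 on 1449678_at and Irf3 on 1435271_at, with spike scaling or 1 array left out). Irf1, Irf4 (1421173_at), Irf8 (1416714_at) and Irf3 (1426111_x_at) kept their calls under every alternative that measured them except the default prior. With that prior 0 probe sets rose and 0 fell, over all and among the 14, where the main setting gave 5084 and 5189, and 7 and 2. With spike scaling 2074 rose and 11539 fell, 3 of the 14 rose, the share of higher calls was 15.2% against 49.5%, the median of all probe sets moved to -0.63 from -0.02, and Irf2 changed sign to -0.10. Spike scaling also gave 6 lower among interferon-stimulated genes, 9 higher among antigen presentation genes, 6 lower among sensors, and 3 higher and 13 lower among partners. At a threshold of 0.01, 3 of the 14 rose and 1 fell. A minimum of 2-fold left 2666 higher and 2821 lower over all. Without _x_at and _s_at probe sets 1 of 12 fell. With 1 probe set per gene 3156 genes rose and 2251 fell, and 1 of the 8 IRF genes fell. With probe sets averaged per gene 1865 rose and 1764 fell, again with 1 of the 8 lower, and the lists gave 1 higher among receptors and JAK-STAT genes, 1 lower among sensors and 2 higher among partners. Leaving out 1 array at a time gave 3325 to 3983 higher and 3184 to 4386 lower over all, and 3 to 4 higher and 1 to 2 lower among the 14. With the replicate number as a block 6125 rose and 6319 fell, and 7 and 2 of the 14. Deviations of arrays with the same number correlated at 0.25, and the labels do not say that a number marks a shared animal or day. Apart from fewer arrays, genes or probe sets where an alternative uses fewer, the cause of these moves was not tested. Dim probe sets limit the precision for Irf5, the second Irf4 and 2 of the Irf3 probe sets.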

Other observations

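Among the antigen presentation genes, 4 neighbours in the MHC region of chromosome 17, in the order Psmb9, Tap1, Psmb8 and Tap2 in the RefSeq table of GRCm38.p6, went in different directions. They were picked out after their values were seen. Psmb9 and Psmb8 are subunits of the immunoproteasome, and Tap1 and Tap2 form the peptide transporter. On probe set 1450696_at Psmb9 had 1317 and 1167 units in tumour cells, against 921.9 and 832.4 in normal cells, and on 1416016_at Tap1 had 1064 and 982 units in tumour cells, against 681.1 and 649.1 in normal cells. On 1422962_a_at Psmb8 had 2435 and 2309 units in tumour cells, against 3710 and 3681 in normal cells, and on 1453913_a_at Tap2 had 990.1 and 958.5 units in tumour cells, against 1742 and 1641 in normal cells. The groups did not overlap for any of these 4 probe sets, as for 56.7% of all probe sets. Psmb9 and Tap1 rose by 0.50 ± 0.10 and 0.62 ± 0.09 (SE, n = 2 arrays per group), while Psmb8 and Tap2 fell by 0.64 ± 0.06 and 0.80 ± 0.08, with limma adjusted p between 7.28e-05 and 0.00436. With spike scaling the same values were -0.10 and 0.02 for Psmb9 and Tap1, which did not pass, and -1.24 and -1.40 for Psmb8 and Tap2, which did. Another Psmb8 probe set, 1444619_x_at, gave 0.25 and did not pass (adjusted p = 0.512), and 3 other Tap1 probe sets were dim on all 4 arrays.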
